A study of Oncorhynchus mykiss with 525 samples.

Results

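Rainbow trout gill cells of the established line RTgill-W1 were exposed for 24 h to 2 chemicals that the labels code gly and ampa, and the wells described here are those of the 3 highest of 8 concentrations of each. They are 18 wells of the 525 in the series, chosen by their labels and not by any measured value. The 9 gly wells of batch 1 were 3 at conc3 (1.88), 3 at conc2 (5.64) and 3 at conc1 (16.91), and the 9 ampa wells of batch 2 were 3 at conc3 (3.02), 3 at conc2 (9.06) and 3 at conc1 (27.18). They were set against wells that received the solvent DMSO on the same plates, 24 in batch 1 and 15 in batch 2. In batch 1 the labels do not settle which solvent wells share a plate with which gly wells. The pairing used throughout was inferred from library numbers and from correlations between these wells. The labels give no unit for the concentrations, and the 3 wells of a group came from 3 plates, each of another cell passage per the series' design text. The same text says that the pesticides were made up in DMSO or in water without saying which for gly or ampa, so that exposure to a chemical and absence of DMSO cannot be told apart. No genotype or second agent distinguishes the groups. RTgill-W1 cells are epithelial cells used in place of live fish in tests of acute toxicity.

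By custom, gly stands for glyphosate, a herbicide that blocks an enzyme of the shikimate pathway, by which plants and many microbes build aromatic amino acids. Animal cells have no such pathway. AMPA is the customary name of the main breakdown product of glyphosate in soil and water. These readings of the codes are background, since the labels used here do not spell them out, and nothing is said here of the structures. The comparison asks which transcripts differed from solvent, whether the 2 chemicals differed from each other, and how large a change could have gone unseen.

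The wells were sequenced to a shallow depth, which varied several-fold between wells. Total counts ranged from 50127 to 431860 (median 108721) in the 9 gly wells and from 89146 to 714466 (median 253930) in the 9 ampa wells, against 25250 to 539790 (median 174236) in batch 1 solvent wells and 158258 to 506267 (median 299140) in batch 2 solvent wells. No well fell under the depth limit set for these wells, and the solvent well of 25250 counts lay just above it. Within gly, the median total was 296561 at conc3, 71609 at conc2 and 89040 at conc1. Mean log2 totals within plates were 0.28 lower in gly wells than in solvent wells (0 of 3 plates higher, exact permutation within plates, two-sided p = 0.5099, n = 9 and 24) and 0.46 lower in ampa wells (1 of 3 plates higher, exact permutation p = 0.1101, n = 9 and 15), with adjusted p of 0.5099 and 0.2202 over both tests. For ampa this value was 0.18 without replicate 1 and -0.92 without replicate 2 (exact permutation p = 0.5159 and 0.00287, not adjusted). By plate it was -1.74, 0.46 and -0.10 for replicates 1, 2 and 3. The permutation exchanged single wells, though treated and solvent wells of a plate came from different libraries. Its p-values thus do not measure the spread between libraries. None of the 44260 gene IDs was paired with a name in the tables used here, so genes are given by ID, and the epithelial markers of the line could not be checked. The solvent wells of every plate were pooled in another library than the gly or ampa wells. Library and treatment therefore cannot be told apart within a comparison with solvent. A concentration always lay in 1 plate row, and row was not part of the fit. Solvent wells lay in rows A to H in batch 1. In batch 2 they lay in rows A to E, none in the rows of conc1 to conc3, so row and treatment cannot be told apart there either.

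Few genes were called against solvent in gly wells. At conc3, 18 of 3396 genes were called (15 higher and 3 lower; 0.53% of those tested), at conc2 12 (7 higher and 5 lower; 0.353%) and at conc1 17 (16 higher and 1 lower; 0.501%), by edgeR's quasi-likelihood test with plate as a block and a Benjamini-Hochberg FDR below 0.05. Of the 45 genes called at any of these concentrations, 44 were called at 1 of them, none at 2 and 1 at all 3, which counts calls and does not test whether concentrations differed. The sizes of the called changes were 0.61 to 5.44 on the log2 scale at conc3 (median 0.89), 0.84 to 3.16 at conc2 (median 1.47) and 0.55 to 2.48 at conc1 (median 1.61). The mean over the 3 concentrations gave 9 calls, 8 higher and 1 lower (0.265%), and an unadjusted p below 0.05 in 9.63% of genes. On all 3 plates, 17 of the 17 genes called at conc1, 11 of 12 at conc2 and 15 of 18 at conc3 moved in 1 direction, against 29.0%, 28.7% and 52.9% of all genes tested. The same wells gave the calls, by a test with plate as block that favours such genes, so this adds no support. Directions on plates, here and for ampa, were taken from counts divided by raw well totals. The calls came from a fit with further scaling between wells, so the scales differ. The calls leaned on single plates: without gly replicate 3 they numbered 6 at conc3, 3 at conc2 and 1 at conc1, and without gly replicate 2 they numbered 8, 6 and 8. Without gly replicate 1 they numbered 22, 7 and 9. For the mean they numbered 21, 3 and 7 without replicates 1, 2 and 3. Without the plate block they numbered 3, 3 and 2, and 2 for the mean, against 9 with it.

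ENSOMYG00000006898 was the gene higher in gly wells with the smallest p, and the only one called at all 3 concentrations. In gly replicate 1 it stood at 135205, 144752 and 106529 CPM, the usual depth-scaled measure of a gene's share of the counts of a well, at conc3, conc2 and conc1, against 64234 to 103417 CPM in the 8 solvent wells of the same plate. In gly replicate 2 it stood at 24258, 25101 and 23843 CPM, against 8861 to 15547 CPM in solvent wells. In gly replicate 3 it stood at 30115, 24662 and 19059 CPM, against 10824 to 14019 CPM in solvent wells. With plates paired by library number, all 9 gly wells lay above all solvent wells of their own plate, while replicate 1 and its solvent wells lay far above the other plates. Paired by the replicate numbers of the labels, gly replicate 2 would face the solvent wells at 64234 to 103417 CPM and lie below them all. Replicates 1 and 3 would lie above theirs. The log2 fold change was 1.31 ± 0.14 at conc3, 0.97 ± 0.14 at conc2 and 0.78 ± 0.14 at conc1 (SE; FDR 3.826e-14, 3.382e-08 and 0.0001075), so that the fitted value was highest at the lowest of the 3 concentrations, a difference between concentrations that was not tested. It was also 0.82 ± 0.09 higher at the 3 lowest concentrations, conc6 to conc8, than in solvent (FDR 2.62e-12), and conc1 to conc3 against conc6 to conc8 gave 0.20 ± 0.10 (FDR 0.5814). Without the plate block the mean of 1.04 was not called (FDR 0.647). In ampa wells the same gene was high in the library of replicate 1 (28341 to 46934 CPM at conc1 to conc3, against 13758 to 16082 CPM in solvent), and low in that of replicate 2 (8202 to 15008 CPM, against 15233 to 23371 CPM in solvent), and its mean log2 fold change of 0.14 ± 0.13 was not called (FDR 0.9491).

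ENSOMYG00000031880 was the only gene called lower in the mean of the 3 gly concentrations. It stood at 177, 299 and 135 CPM in replicates 1, 2 and 3 at conc3, at 119.7, 175 and 83.8 CPM at conc2, and at 182, 325 and 135 CPM at conc1. The same-plate solvent wells held 170.3 to 389, 336 to 471 and 153 to 290.5 CPM. All 3 conc2 wells lay below all solvent wells of their plates, while at conc3 and conc1 the replicate 1 wells overlapped with solvent. The log2 fold change was -0.26 ± 0.17 at conc3 (FDR 0.8657), -1.23 ± 0.28 at conc2 (FDR 0.008544) and -0.33 ± 0.21 at conc1 (FDR 0.6005), with a mean of -0.61 ± 0.14 (FDR 0.01372, SE). The counts behind the conc2 values were 6, 19 and 6. The call of the mean was lost without replicate 1, 2 or 3 (FDR 0.0593, 0.313 and 0.129) and without the plate block (FDR 0.65).

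**Figure D1:**
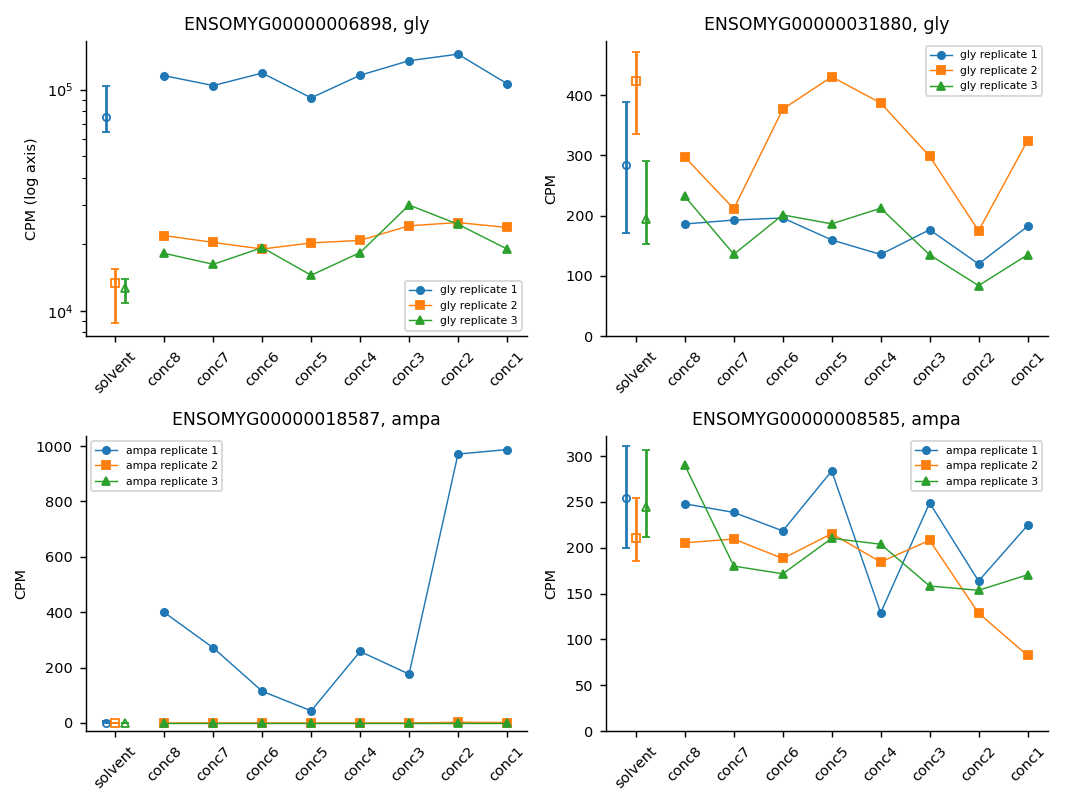
CPM of 4 genes in every gly or ampa well by concentration, from conc8 (lowest) to conc1 (highest), with a line per replicate; open symbols and bars at the left give the median and the range of the solvent wells on the plate of that replicate. ENSOMYG00000006898 lies above the solvent median of its plate in all 24 gly wells, ENSOMYG00000031880 dips at gly conc2, ENSOMYG00000018587 has counts almost only in ampa replicate 1, and ENSOMYG00000008585 is lowest in ampa replicate 2 at conc1.

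Many of the genes called in gly had the same sign in wells of another chemical at the same plate position. In batch 2, the chemical coded diz lay in the same plate column 3 in its replicates 1 and 2, and in column 2 in its replicate 3, with the same rows for the same concentration numbers. ENSOMYG00000031880 stood at 156 and 120.4 CPM in well G03 of diz replicates 1 and 2, the lowest of the 8 diz wells in both, and at 340.4 CPM in well G02 of diz replicate 3, where it was not the lowest. Well G03 is the conc2 well of gly. Among the 12 genes called at gly conc2, 11 had the sign of gly in both column 3 diz libraries, relative to the conc4 to conc8 diz wells, and 8 had it in column 2, against 30.2% and 47.5% of all genes. At conc3 the counts were 12 and 5 of 18 called genes, against 29.2% and 48.8% of all genes, and at conc1 they were 14 and 14 of 17, against 30.1% and 52.1%. The median size in the direction of gly was 0.67 in column 3 and 0.22 in column 2 at conc2, 0.26 and -0.04 at conc3, and 0.76 and 0.48 at conc1, on the log2 scale. These sets were chosen after their values were seen, diz is a treatment of its own, and the part of well position in the gly calls was not tested.

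The clearest gene of this kind was ENSOMYG00000006922, named after its values were seen. At gly conc2 it stood at 2733, 828 and 349 CPM in replicates 1, 2 and 3, against 674 to 1352, 139 to 391 and 71.2 to 194 CPM in solvent wells of the same plates, a log2 fold change of 1.71 ± 0.19 (SE, FDR 1.591e-10; 0.581 without the plate block). The 3 conc2 wells lay above all solvent wells of their plates. Well G03 of diz replicates 1 and 2 held 741 and 765 CPM. That was 3.47 and 3.62 times the median of 12 solvent and diz wells of the library, which included G03 and left out C03. The gene stood at 741 CPM in well G02 of diz replicate 3 too, in column 2. There the median of 12 such wells of the library was higher, at 561 CPM. At gly conc6, in well C03, it reached 54181, 11528 and 6336 CPM, and well C03 of batch 2 held 6545 and 5141 CPM in diz replicates 1 and 2 and 6321 CPM in a solvent well. On 6 of 6 plates well C03 thus stood at 11.3 to 59.6 times the median of the other wells used from its library. It held gly, diz or solvent, and in batch 2 the other wells used were 12 of solvent and diz. Well D09 is conc5 of ampa in batch 2 and of a chemical coded col in batch 1. It stood at 7.31 to 10.9 times the median of the other wells of its library on 6 of 6 plates.

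**Figure D2:**
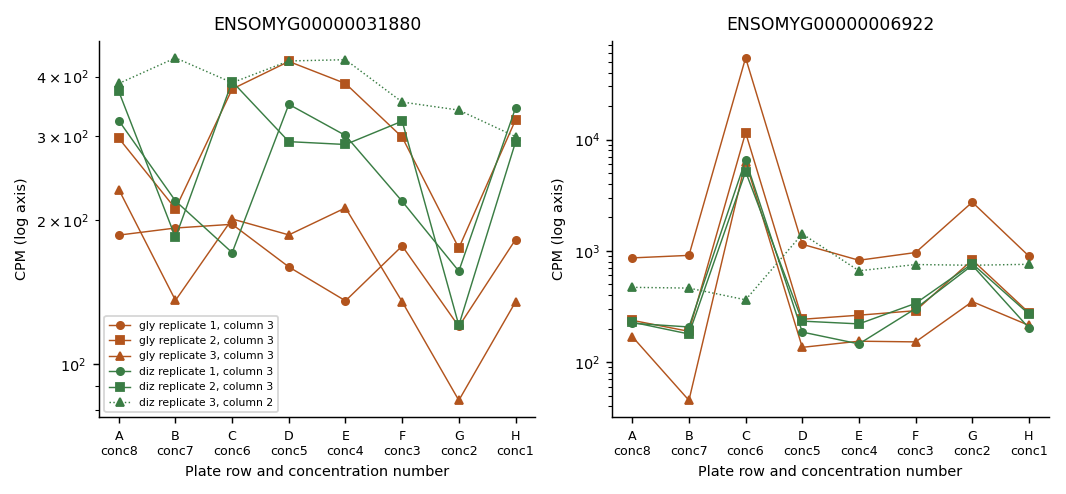
CPM (log axis) of ENSOMYG00000031880 and ENSOMYG00000006922 by plate row A to H, which is conc8 to conc1, in the 3 gly replicates (column 3) and in the 3 diz replicates (column 3 for replicates 1 and 2, column 2 dotted for replicate 3). In row G of column 3 the first gene is low and the second high under both chemicals, and in row C of column 3 the second gene stands at 5141 CPM or more in all 5 wells.

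In ampa wells too, few genes were called against solvent. At conc3, 11 of 4232 genes were called (7 higher and 4 lower; 0.26% of those tested), at conc2 13 (9 higher and 4 lower; 0.307%) and at conc1 10 (8 higher and 2 lower; 0.236%), and in the mean of the 3 concentrations 12 (6 higher and 6 lower; 0.284%), by the same test. Unadjusted p below 0.05 was found in 6.59% of genes for the mean. Of the 25 genes called at any concentration, 18 were called at 1, 5 at 2 and 2 at all 3. Replicate 1 held over 90% of the CPM of 2 of the 7 genes called higher at conc3, of 6 of 9 at conc2, of 8 of 8 at conc1 and of 6 of 6 in the mean. Only 2 of 10 genes called at conc1 moved in 1 direction on all 3 plates, against 24.0% of all genes tested, and 9 of 13 at conc2 and 9 of 11 at conc3, against 27.1% and 37.6%. As the same wells gave the calls, agreement across plates adds no support. Without ampa replicate 1 the calls numbered 9 at conc3, 2 at conc2, 0 at conc1 and 3 in the mean, none of the last higher. Without ampa replicate 2 they numbered 4, 13, 23 and 13, and without ampa replicate 3 they numbered 14, 19, 22 and 31. Without the plate block they numbered 1, 4 and 5, and 5 for the mean.

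ENSOMYG00000018587 was the gene called higher in ampa wells with the smallest p. It had 17, 89 and 88 counts in replicate 1 at conc3, conc2 and conc1, or 176, 971 and 987 CPM. In replicate 2 it had 0, 1 and 1 counts and in replicate 3 none, against 2 counts over 15 solvent wells, both in 1 well of the plate of replicate 1. Within that plate the 194 counts of the ampa wells and the 2 of solvent gave a ratio of 555 per total count (exact 95% interval 152 to 4616, counting error only). The other 5 ampa wells of that library, at conc4 to conc8, held it at 43.65 to 399 CPM, so that counts were present at all 8 concentrations. The same library also held 8 wells each of 2 other chemicals, coded car and smet, in which the gene had 3 counts and 1 count in all. The difference thus rested on 1 of 3 replicates. The mean log2 fold change of the gene was 8.64 ± 1.03 by edgeR (SE, FDR 5.292e-19) and 2.28 by DESeq2, which did not call it (FDR 0.932).

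ENSOMYG00000008585 was the gene called lower in ampa wells with the smallest p. It stood at 249, 208 and 158 CPM in replicates 1, 2 and 3 at conc3, at 164, 129 and 154 CPM at conc2, and at 224, 82.6 and 170.5 CPM at conc1. The same-plate solvent wells held 199 to 310.5, 186 to 254 and 211 to 307 CPM. All replicate 3 wells, the conc2 wells of all replicates and the conc1 well of replicate 2 lay below the solvent wells of their plates, and the other 3 wells overlapped with them. The log2 fold change was -0.56 ± 0.18 at conc3 (FDR 0.3742), -0.79 ± 0.19 at conc2 (FDR 0.03545) and -0.82 ± 0.19 at conc1 (FDR 0.02678), with a mean of -0.72 ± 0.12 (FDR 9.791e-05, SE), which was -0.62 and not called without replicate 2 (FDR 0.0615), nor with solvent wells summed per plate (FDR 0.0567). Against the 3 lowest ampa concentrations the 3 highest differed by -0.40 ± 0.14 (FDR 0.6091). In gly wells the mean was -0.44 ± 0.14 (FDR 0.1763). The gly and ampa values differed by 0.11 ± 0.28 at conc3, 0.02 ± 0.34 at conc2 and 0.66 ± 0.30 at conc1 (gly minus ampa, SE), with none past the FDR (0.9978, 0.9959 and 0.5935).

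The contrast of the 3 highest with the 3 lowest concentrations, conc6 to conc8, compares wells of the same libraries. It gave 2 calls for gly (1 higher and 1 lower; 0.0589% of 3396 genes; 9 without replicate 1 and 1 without replicate 2) and 1 for ampa (lower; 0.0236% of 4232 genes; 0 without replicate 1 and 0 without replicate 2), with unadjusted p below 0.05 in 9.04% and 5.58% of genes. The gly gene called lower was ENSOMYG00000006922, at -1.25 ± 0.15 (SE, FDR 3.363e-09; 0.679 without the plate block), which is the gene that peaked in well C03 of conc6. The gly gene called higher, ENSOMYG00000011728, had 162 counts in replicate 1 at conc3, 109 in replicate 3 at conc3, 23 and 28 in replicate 2 at conc2 and conc1, and none in the other 5 of these wells. Against them stood 17 counts in 1 of the 9 wells of conc6 to conc8, and its presence was sporadic in solvent as well, in 6 of 24 wells. The ampa gene, ENSOMYG00000035727, was called lower, and stood at 123, 148 and 248 CPM in replicates 1, 2 and 3 at conc1, against 358 to 409.6, 360.3 to 405 and 380.4 to 517 CPM at conc6 to conc8 of the same libraries. Its difference was -0.60 ± 0.12 (FDR 0.01471), and all 3 conc1 wells lay below the 9 low-concentration wells. It stood at 338, 239.9 and 417 CPM at conc2 and at 290.4, 250.5 and 327 CPM at conc3, so that replicate 3 at conc2 lay within the range of conc6 to conc8. Against solvent, the mean of conc1 to conc3 was -0.29 ± 0.11 (FDR 0.5311) and that of conc6 to conc8 was 0.32 ± 0.10 (FDR 0.3138), neither of them called. The call was lost without replicate 1 or 2 (FDR 0.15 and 0.549) and without the plate block (FDR 0.138). At conc1 its log2 fold change against solvent was -0.69 ± 0.17, which did not pass (FDR 0.05173). These 3 genes were named after their values were seen. Against solvent, conc6 to conc8 of gly gave 36 calls (1.06%) and those of ampa gave 8 (0.189%), so that the lowest concentrations of gly had more calls than the mean of the highest ones, which had 9. The gly counts were taken at unequal precision, with a median SE of 0.259 for conc6 to conc8 and 0.302 for conc1 to conc3. They do not compare the sizes of change.

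For most genes the interval of the mean bounded the difference from solvent more tightly than the count of calls shows. The fit took wells as independent within plates, though treated wells of a plate came from 1 library and solvent wells from another. The intervals thus bound treatment and library together, and may be too narrow for the spread between libraries. For the mean of the 3 concentrations, the 95% interval of the log2 fold change lay inside 2-fold in both directions for 2227 of 3396 genes in gly (65.6%) and for 3050 of 4232 genes in ampa (72.1%), and inside 4-fold for 95.7% and 98.4%. At single concentrations it lay inside 2-fold for 48.1% of genes at gly conc3, 23.1% at conc2 and 27.3% at conc1, and for 39.3%, 38% and 40.1% at ampa conc3, conc2 and conc1. Inside 4-fold the shares were 91.4%, 74.9% and 80% for gly, and 89.5%, 89.4% and 91.4% for ampa. The bound depended on abundance: with genes split by mean log2 CPM into 3 groups of equal size, from low to high, the interval of the mean lay inside 2-fold for 27.6%, 72.3% and 96.9% of gly genes and for 34.6%, 82.8% and 98.9% of ampa genes. With intervals widened by Bonferroni's factor to hold over all genes at once, the shares inside 2-fold were 17.9% and 21.1%, and inside 4-fold 68.7% and 73.3%. The median half-width of the interval was 0.60 for gly and 0.57 for ampa on the log2 scale. In 90% of genes the far end of the interval lay within 1.49 for gly and 1.32 for ampa. An interval wholly beyond 2-fold was found for 1 gene in gly and 4 in ampa. The gly gene was ENSOMYG00000011728, with an interval of 2.45 to 5.04. It had counts in only 4 of the 9 gly wells, and in 6 of 24 solvent wells, so this does not establish a change in each well. Replicate 1 held over 90% of the CPM of all 6 genes called higher in the mean of ampa. Among them was ENSOMYG00000018587, with an interval of 6.58 to 10.69, which does not establish a change in each replicate. The lower shares at gly conc2 and conc1 go with the lower totals of those wells. Without replicate 2 the mean lay inside 2-fold for 1318 genes in gly and 1979 in ampa. The filter on low counts was applied anew to the remaining wells, so these counts are not shares of 3396 or 4232 genes.

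**Figure D3:**
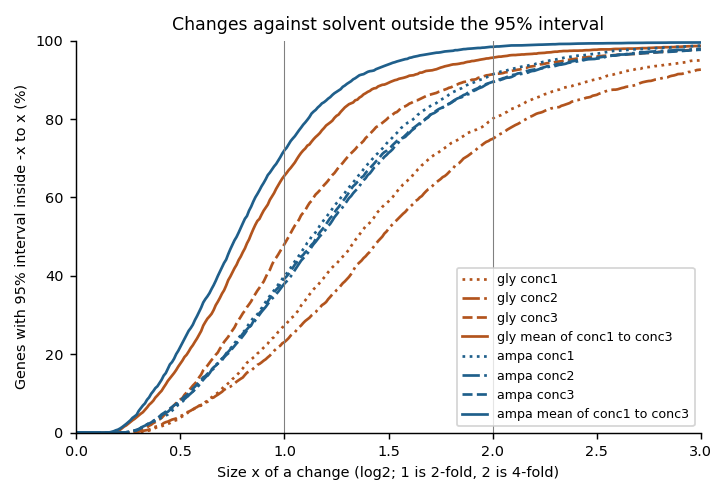
Percent of genes tested (vertical axis) whose 95% interval of the log2 fold change against solvent lies inside the size on the horizontal axis, for gly (3396 genes) and ampa (4232 genes) at conc1, conc2, conc3 and for their mean. At 2-fold the curves of the mean reach 65.6% for gly and 72.1% for ampa, and gly conc2 is the lowest at 23.1%.

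Genes that responded to other chemicals in this assay were then described in gly and ampa, with no test. Chemicals coded dip and met, of the other batch in each case, gave 1336 of 4436 genes (30.1%) and 1022 of 3795 genes (26.9%) called and changed at least 2-fold at conc1. Of the 560 genes higher under dip, 353 were tested in gly, with a median of -0.06 in the mean of the 3 concentrations, and of the 776 lower under dip, 642 were tested, with a median of -0.08, against -0.08 over all genes. The mean joins unlike values at single concentrations. Medians of the higher and lower lists were -0.11 and 0.11 at conc3, against -0.03 over all genes. They were -0.05 and -0.16 at conc2, against -0.08, and 0.09 and -0.14 at conc1, against -0.05. In the mean of the 3 gly concentrations 1 of the 353 and 4 of the 642 genes were called, against 9 of all 3396 (0.265%). The list of 642 genes was drawn from 3396 tested in gly. At gly conc2, 2 genes called higher and all 5 called lower lay in it, of 12 called in all. At conc3 it held 3 of 18 called genes, and at conc1 it held 1 of 17, all of them called higher. Whether these counts go with the dip response was not tested. Of the 342 genes higher under met, 291 were tested in ampa, with a median of -0.08, and of the 680 lower, 673 were tested, with a median of -0.00457, against -0.04 over all genes. In the mean of the 3 ampa concentrations 1 of the 291 and 1 of the 673 genes were called, against 12 of all 4232 (0.284%). The interval lay inside 2-fold for 60.6% and 79% of the dip lists in gly and for 75.6% and 94.8% of the met lists in ampa. The same genes changed by a median of 1.32 and -1.65 under dip, and 1.56 and -2.30 under met, values which chose them.

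Set side by side, the fold changes of gly and ampa showed little correlation. The concentrations are not matched, since that of ampa was 1.61 times that of gly at each step, and no solvent well is shared. Over the 3149 genes tested in both, Pearson's r between the log2 fold changes was 0.10 at conc3, -0.01 at conc2, 0.05 at conc1 and 0.00427 for the mean, as a description across genes, which share wells and are not independent. In the mean, 0 of these genes were called in both chemicals, of 8 called in gly and 6 in ampa, and 64.5% had an interval inside 2-fold in both. Calls were 0.265% and 0.284% of the genes tested in each, too few for an overlap of 0 to tell likeness from difference. The median size of a log2 fold change in the mean was 0.22 in gly and 0.18 in ampa, against median half-widths of 0.60 and 0.57. A low r therefore cannot tell unlike responses from imprecise values. The difference of the fold changes was tested in 1 model over both batches, for 3 pairs. At conc3, 11 of 5308 genes differed (10 higher and 1 lower in gly; 0.207%), at conc2 5 (2 higher and 3 lower; 0.0942%) and at conc1 0 (0%), where 400 genes had an unadjusted p below 0.05 and DESeq2 called 10. Adjusted over the 3 pairs together, the counts were 10, 5 and 1. The difference was bounded less well than the fold changes themselves: its interval lay inside 2-fold for 14.3% of genes at conc3, 8.89% at conc2 and 9.42% at conc1, and inside 4-fold for 56.7%, 39% and 44.1%. For most genes the interval thus reached beyond a 2-fold difference between gly and ampa. Without replicate 2 of both chemicals the counts were 3 at conc3 and 2 at conc2, and without replicate 1 there were 22 at conc3. Without the plate block no gene differed at any of the 3 pairs.

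**Figure D4:**
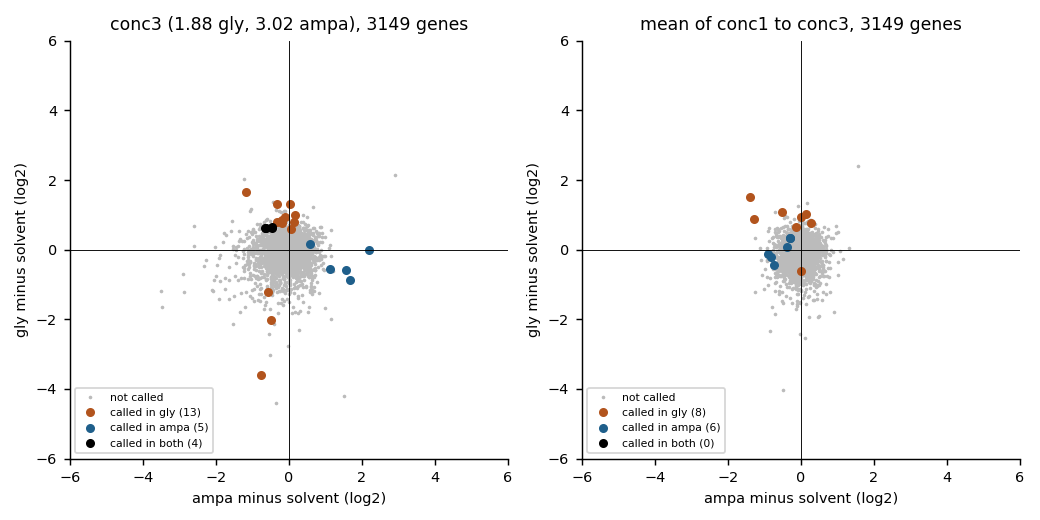
Log2 fold change against solvent in gly (vertical) and in ampa (horizontal) for the 3149 genes tested in both, at conc3 (left) and for the mean of conc1 to conc3 (right), with called genes in colour. The clouds show no common axis, and 4 genes called in both at conc3 lie together at higher in gly and lower in ampa.

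The 4 genes called in both chemicals at conc3 had opposite signs, and they were the 4 most counted IDs of these tables. ENSOMYG00000029940 and ENSOMYG00000029795 each held about 16.9% of all counts, and ENSOMYG00000002243 and ENSOMYG00000002129 held 6.00% and 5.97%. Values were nearly equal within each pair, as counting can give for near-identical copies whose reads are shared, so these are not 4 independent measurements. ENSOMYG00000029940 stood at 129250, 190305 and 176817 CPM in gly replicates 1, 2 and 3 at conc3 and at 125683, 140324 and 147020 CPM in ampa replicates, against 65465 to 197227 CPM in batch 1 solvent and 156399 to 217103 CPM in batch 2 solvent. Its log2 fold change was 0.62 ± 0.16 in gly (FDR 0.03039) and -0.64 ± 0.10 in ampa (FDR 6.264e-05), and the difference of 1.33 passed the FDR over 3 pairs (6.252e-05). The gly calls of all 4 genes were lost when any 1 replicate was left out (for ENSOMYG00000029940, FDR 0.172, 0.122 and 0.313 without replicates 1, 2 and 3), without the plate block (FDR 0.999) and with solvent wells summed per plate (FDR 0.168). RLE scaling also lost ENSOMYG00000029940 and ENSOMYG00000029795 in gly (FDR 0.075). In ampa the calls of ENSOMYG00000002243 and ENSOMYG00000002129 were lost without replicate 1 (FDR 0.163 and 0.186) or replicate 2 (FDR 0.594 for each), and all 4 were lost without the plate block (FDR 0.688 to 0.937). For ENSOMYG00000029940 and ENSOMYG00000029795, all 3 ampa wells at conc3 lay below all batch 2 solvent wells. Their 3 gly wells at conc3 lay within the range of all batch 1 solvent wells. In gly replicate 2 at conc3 the 4 genes held 50.7% of counts, within the 41.6% to 51.1% of its own-plate solvent wells. The ampa wells of ENSOMYG00000002243 (52170.5 to 58828 CPM) and ENSOMYG00000002129 (52529 to 57854 CPM) overlapped with batch 2 solvent, whose lowest values were 51214 and 51352 CPM.

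The share of all counts in these 4 genes, a measure chosen after their values were seen, was then taken as a single value per well. At conc3 it was 36.6%, 50.7% and 48.5% in gly replicates 1, 2 and 3, against medians of 25.3%, 46.3% and 38.8% in the solvent wells of their plates. At conc3 it was 37.0%, 39.5% and 39.9% in ampa replicates 1, 2 and 3, against medians of 47.8%, 55.2% and 43.8%. The conc3 share of gly averaged 45.2 ± 7.59%, against 36.9 ± 9.63% in solvent (SD, n = 3 and 24), a within-plate difference of 8.37 points with 3 of 3 plates higher. That of ampa averaged 38.8 ± 1.58%, against 48.5 ± 5.34% in solvent (SD, n = 3 and 15), a difference of -9.68 points with 0 of 3 plates higher. These shares restate the calls of the same genes in the same wells and are given as a description, with no test. At conc2 and conc1 the differences were 1.03 and 4.45 points in gly (-2.59 and 0.0716 without replicate 1) and -2.24 and -2.62 points in ampa. At conc4 to conc8 the share was 35.3% to 42.2%, 49.2% to 54.8% and 38.0% to 46.0% in gly replicates 1, 2 and 3, against 18.7% to 27.8%, 41.6% to 51.1% and 35.7% to 44.6% in the solvent wells of their plates. It was 34.9% to 39.9%, 44.7% to 51.6% and 35.7% to 43.3% at conc4 to conc8 of ampa replicates 1, 2 and 3, against 43.9% to 48.0%, 51.0% to 59.5% and 41.6% to 45.3% in solvent. The conc3 well lay outside the conc4 to conc8 range of its own library in 1 of 3 replicates of each chemical, above it in gly replicate 3 and below it in ampa replicate 2. In the other replicates it lay within the range of the lower concentrations, and the part of the library in the conc3 difference was not tested.

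**Figure D5:**
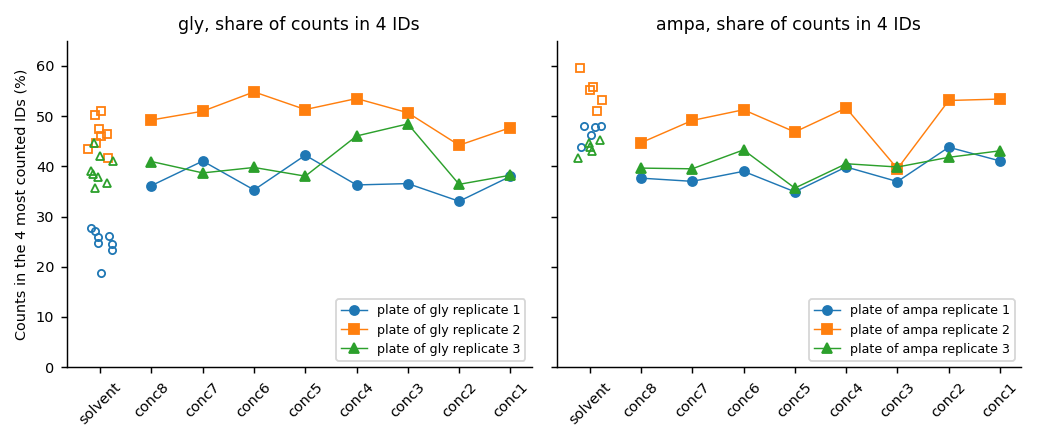
Percent of counts in the 4 most counted IDs in every gly well (left) and ampa well (right) by concentration, from conc8 (lowest) to conc1 (highest), with filled symbols and a line per replicate; open symbols at the left are the solvent wells of the same plate. At conc3 the gly wells lie above and the ampa wells below the solvent medians of their plates, and gly replicate 1 lies above its solvent wells at all 8 concentrations.

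Further genes differed between the chemicals, and whether the difference varied between concentration steps was not tested. ENSOMYG00000034988 stood at 767, 1528 and 1302 CPM in gly replicates at conc3 and at 736, 751 and 651 CPM in ampa replicates, against solvent medians of 588 CPM in batch 1 and 586 CPM in batch 2, and the difference was 1.34 (FDR over 3 pairs 0.0001351). In the wells of diz that share column 3 it was higher at conc3 too, by 1.13 and 1.34 on the log2 scale, and by 0.14 in column 2. ENSOMYG00000009413 was the 1 gene lower in gly than in ampa at conc3. It stood at 4584, 8851 and 4207 CPM in ampa replicates, against a batch 2 solvent range of 523 to 4416 CPM, and at 591, 602 and 550 CPM in gly replicates, against 460 to 2418 CPM in batch 1 solvent. At conc2 the 5 genes were ENSOMYG00000006922 (difference 3.10, with 2.18 at conc3 and 1.20 at conc1, FDR 0.06982 and 0.659) and ENSOMYG00000036912 (1.17), higher in gly, and ENSOMYG00000000592 (-1.42), ENSOMYG00000010691 (-1.69) and ENSOMYG00000031881 (-2.60), lower in gly. Of these, ENSOMYG00000000592 rose in ampa at conc2, to 349, 364 and 465 CPM, against 74.7 to 204 CPM in batch 2 solvent (log2 fold change 1.78, FDR 2.799e-13), and stood at 63.0 to 158 CPM in ampa at conc3 and conc1. In gly at conc2 it stood at 39.9, 184 and 265 CPM, against 0 to 188 CPM in batch 1 solvent (0.41, FDR 0.7874). At gly conc2 ENSOMYG00000031881 stood at 0, 64.4 and 0 CPM, against 56.8 to 259 CPM in batch 1 solvent. At conc2 of diz it differed from conc4 to conc8 by -1.73 and -0.92 (log2) in column 3 and 0.30 in column 2. For ENSOMYG00000010691 these values were -0.36, -1.01 and -0.17, and for ENSOMYG00000036912 they were 0.25, 0.80 and 0.23. The part of well position in these differences was not tested. The difference in ENSOMYG00000006922 also holds the batch 2 solvent wells, of which 1, in well C03, stood at 6321 CPM against a median of 220.0 CPM. At conc1 the single gene was ENSOMYG00000032395, at 152, 70.8 and 78.6 CPM in gly replicates and 11.2, 2.80 and 4.06 CPM in ampa replicates, against solvent medians of 29.9 and 18.4 CPM (difference 3.799, FDR over 3 pairs 0.02063, 0.09626 within its pair). It is a gene of low level, with 0 to 80.4 CPM in batch 1 solvent and 5.77 to 45.5 CPM in batch 2 solvent. Against solvent at conc1 it was called in neither chemical (FDR 0.05034 in gly and 0.4814 in ampa). These genes were named after their values were seen.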

How the data were processed

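Libraries were made with the QIAGEN UPXome kit, per the labels' protocols, and the authors deposited raw counts per gene and well; no source used here names the aligner, annotation or strand setting. A lower limit on the total count per well, taken from the rule for these wells, removed none. Columns repeated between tables (267) held the same values and were used once. Counts were fitted per chemical with all 8 concentrations and solvent, and jointly for gly minus ampa, by edgeR 4.0.16 in R 4.3.3 (TMM scaling, filterByExpr, quasi-likelihood test, plate as block, Benjamini-Hochberg FDR below 0.05). DESeq2 1.42.0 was an alternative, and single values per well were tested by exact permutation within plates in Python 3.11.15. The model was also run on simulated data.

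The plate block of batch 1 came from runs of library numbers, because deviations from group means of gly and solvent wells correlated with a median r of 0.199 on the same plate so assigned (0.231, 0.226 and 0.154 on the 3 plates), against -0.0969 between plates and -0.11 when matched by replicate number. For ampa the labels' numbers gave 0.0703 (0.0669, 0.0573 and 0.0782), against -0.0303. No well pair of a group agreed within counting noise (429 pairs, lowest chi-square per degree of freedom 1.771). The low totals of several wells limit precision for low genes. The exact interval on the count ratio of ENSOMYG00000018587 covers counting error only. Intervals of log2 fold changes also hold the spread between wells as fitted.

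Named by rule were, for each chemical, the ID of smallest p among those higher and among those lower in the mean of conc1 to conc3. An ID called in both chemicals in the same direction in that mean would have taken their place, but no ID was. The 4 IDs called in both chemicals at conc3 were named outside this rule. The wells, lists and tests were chosen with earlier results of these data known. Alternatives were no block, the other plate assignment, other scaling, no filter, fewer groups, summed solvent wells, the 4 most counted IDs left out and each replicate left out.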

Additional observations from a re-analysis of the deposited data

Results flagged for a closer look

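The difference between gly and ampa was tested directly at the 3 concentration steps, and 10 genes at conc3, 5 at conc2 and 1 at conc1 differed by edgeR's quasi-likelihood test with Benjamini-Hochberg adjustment over the 3 pairs. Among them, ENSOMYG00000006898 was 1.70 higher in gly at conc3 on the log2 scale (gly minus ampa), and ENSOMYG00000006922 was 3.10 higher at conc2. The concentrations of the chemicals differ at each step, and the parts of library and well position were not tested.

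Outside the 3 highest concentrations, ENSOMYG00000006922 stood at 54181, 11528 and 6336 CPM in gly replicates 1, 2 and 3 at conc6, above all solvent wells of batch 1, which held 71.2 to 1352 CPM. These wells share a position, C03, with wells of diz and solvent in batch 2 in which the gene was high as well.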

How the results depend on the processing

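Counts of calls depended on the processing, and the fold change of ENSOMYG00000018587 in ampa differed between edgeR and DESeq2. The counts listed here are those that moved clearly from the main fit, and not every contrast is given for each setting. The number of genes tested varied between some settings. Without the plate block, calls for gly numbered 3 at conc3, 3 at conc2, 2 at conc1, 2 for the mean and 0 against conc6 to conc8, and those for ampa 1, 4, 5, 5 and 0; gly minus ampa gave 0 at conc3 and 0 at conc2. With the block by the replicate numbers of the labels, in place of the pairing by library number, they were 3, 3, 0, 2 and 0 for gly and 0 and 0 for the difference. DESeq2 called 24 genes at conc2, 40 at conc1 and 27 for the mean in gly, and in ampa 4 at conc2, 2 at conc1, 2 for the mean and 2 against conc6 to conc8, with 1 at conc2 and 10 at conc1 for the difference. With no filter on low counts there were 6 at gly conc2, 5 at gly conc1, 20 for gly and 2 for ampa against conc6 to conc8, and 18 at conc3 and 2 at conc2 for the difference. With solvent wells summed per plate there were 11, 19 and 7 at gly conc3, conc2 and conc1, 16 for gly against conc6 to conc8, 5 and 3 at ampa conc2 and conc1, and 3 for the ampa mean. Fitting conc1 to conc3 and solvent only gave 14 for the gly mean and 8 at ampa conc2. Leaving out the 4 most counted IDs gave 6 at ampa conc3 and 6 for the difference at conc3, and RLE scaling gave 2 for the difference at conc1. Against conc7 and conc8 only, an alternative chosen after seeing the data, 1 call was left for gly and 0 for ampa. For these counts the cause was not tested.

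Leaving out each replicate in turn gave 6 to 22 calls at gly conc3, 3 to 7 at conc2, 1 to 9 at conc1, 3 to 21 for the mean and 1 to 9 against conc6 to conc8. For ampa the ranges were 4 to 14, 2 to 19, 0 to 23, 3 to 31 and 0 to 2, and for the difference 3 to 22 at conc3 and 2 to 6 at conc2. Genes with the mean inside 2-fold ranged from 1318 to 1940 for gly and from 1979 to 2584 for ampa. The genes tested were filtered anew each time, so these ranges do not have the gene numbers of the main fit as their base. Log2 totals of ampa wells minus solvent ranged from -0.92 to 0.18, positive without replicate 1. The share in the 4 most counted IDs, a measure chosen after seeing the data, ranged from 0.0716 to 7.28 points at gly conc1 and from -2.59 to 3.04 points at gly conc2, negative without replicate 1. No well was under the depth limit, so keeping all wells changed nothing. The single genes followed through these settings kept their direction wherever a setting gave a value for them. Of these values, 115 lost their call, 197 kept their side of the threshold and 1 gained a call. Settings in which a gene was not tested gave no value and are not counted. The medians of the dip and met lists moved by less than 0.1 under RLE scaling. Depth limits the genes of low level most.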
